A study of Rattus norvegicus with 12 samples.

Results

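The genes described here are the epidermal growth factor (EGF) family as it was named for NRK-52E cells, 6 ligand genes (Hbegf, Areg, Ereg, Tgfa, Btc and Nrg1) and 3 receptor genes (Egfr, Erbb2 and Erbb3). They were chosen by name, as ligands and ErbB receptors with a part in kidney fibrosis. The rule uses no measured value, but the family was picked with earlier results of these data known. All 9 were among the 24660 genes of the count table, and all 9 were among the 14184 genes that passed the filter on low counts and were tested. NRK-52E is an established line of rat renal tubular epithelial cells, labelled as wild type, and all groups were grown in DMEM with fetal bovine serum. The 4 groups, with 3 libraries each, were untreated cells (Control), cells given TGF-beta1 alone (TGFb1), and cells given TGF-beta1 followed by extracellular vesicles named 2D-EVs or 3D-EVs. Per the labels TGF-beta1 was given for 24 h at 10 ug/ml, a unit that is in doubt, and the vesicles for a further 48 h at 500000000 particles/ml. TGF-beta1 is used on such cells to model fibrosis. The labels do not say which cells released the vesicles or when the groups without vesicles were collected, and no group received vesicles without TGF-beta1.

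Most EGF family ligands are made as membrane-anchored precursors, and metalloproteases of the ADAM family cut them free. The soluble ligands bind ErbB receptors, which pair with each other and signal through the Ras, MAP kinase and phosphoinositide 3-kinase routes. ERBB2 has no known ligand of its own and serves as a partner, and ERBB3 has little kinase activity and binds neuregulins. In the kidney tubule EGF receptor activity is known both for repair after acute injury and, when it persists, for fibrosis.

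Library totals ran from 32888125 to 39754319 counts, so that 3 counts corresponded to between 0.0764 and 0.0915 CPM. Levels are given in CPM, counts scaled to library size, with TMM factors. They are not corrected for gene length, and they are compared between libraries and not between genes. Mitochondrial genes held 5.31% to 5.58% of counts in the 12 libraries. Of 13 tubular markers in the table Epcam and Pax2 were at 0 in every library, Krt18, the keratin that pairs with Krt8, was at 0 in 11 of 12, and Krt8 and Ggt1 gave most of the summed level, which was 1220 to 1248 CPM in Control, 1533 to 1596 CPM in TGFb1, 1511 to 1545 CPM with 2D-EVs and 1497 to 1553 CPM with 3D-EVs. The 8 fibroblast and pericyte markers summed to 745 to 791 CPM in Control and 699.5 to 718 CPM in TGFb1. The sum was 702 to 715 CPM with 2D-EVs and 724 to 764 CPM with 3D-EVs. Mfap5 and Col14a1 gave most of it. From Control to TGFb1 the mean of Col14a1 went from 199 to 130 CPM. Mfap5 was at 551 and 552 CPM in these groups, and Pdgfrb at 18.8 and 21.3 CPM. Of 7 immune markers 5 were at 0 throughout (Ptprc, Itgam, C1qa, C1qb and Tyrobp) and the sum stayed between 3.20 and 4.56 CPM. The 6 endothelial markers summed to between 1.81 and 3.33 CPM, with Emcn at 0. Mapk3, for the widely expressed MAP kinase ERK1, was also at 0 in all 12 libraries, so a 0 in this table need not mean that a gene is not expressed. In these bulk libraries a lower share of cells of one kind and less RNA per cell cannot be told apart, and the part of these marker levels in the results below was not tested. Nothing in the labels says that the 3 libraries of a group came from separate cultures, so each p-value rests on library-to-library spread alone, and that spread may be technical.

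TGF-beta1 changed 6 of the 9 family genes against Control, 2 upward and 4 downward. Hbegf and the receptor gene Erbb3 rose, and the ligand genes Areg, Btc and Nrg1 and the receptor gene Erbb2 fell. Ereg, Tgfa and Egfr did not pass the test. The called changes ran from 1.39-fold higher for Hbegf to 0.775 of the Control level for Areg. Over all genes tested 22.0% were called in this comparison, 11.8% higher and 10.2% lower (edgeR quasi-likelihood test, Benjamini-Hochberg adjusted p under 0.05). The same 6 family genes were those whose TGFb1 and Control libraries did not overlap, which held for 38.0% of all genes. The median log2 change was -0.26 over the 9 genes and near 0 over all genes.

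**Figure D1:**
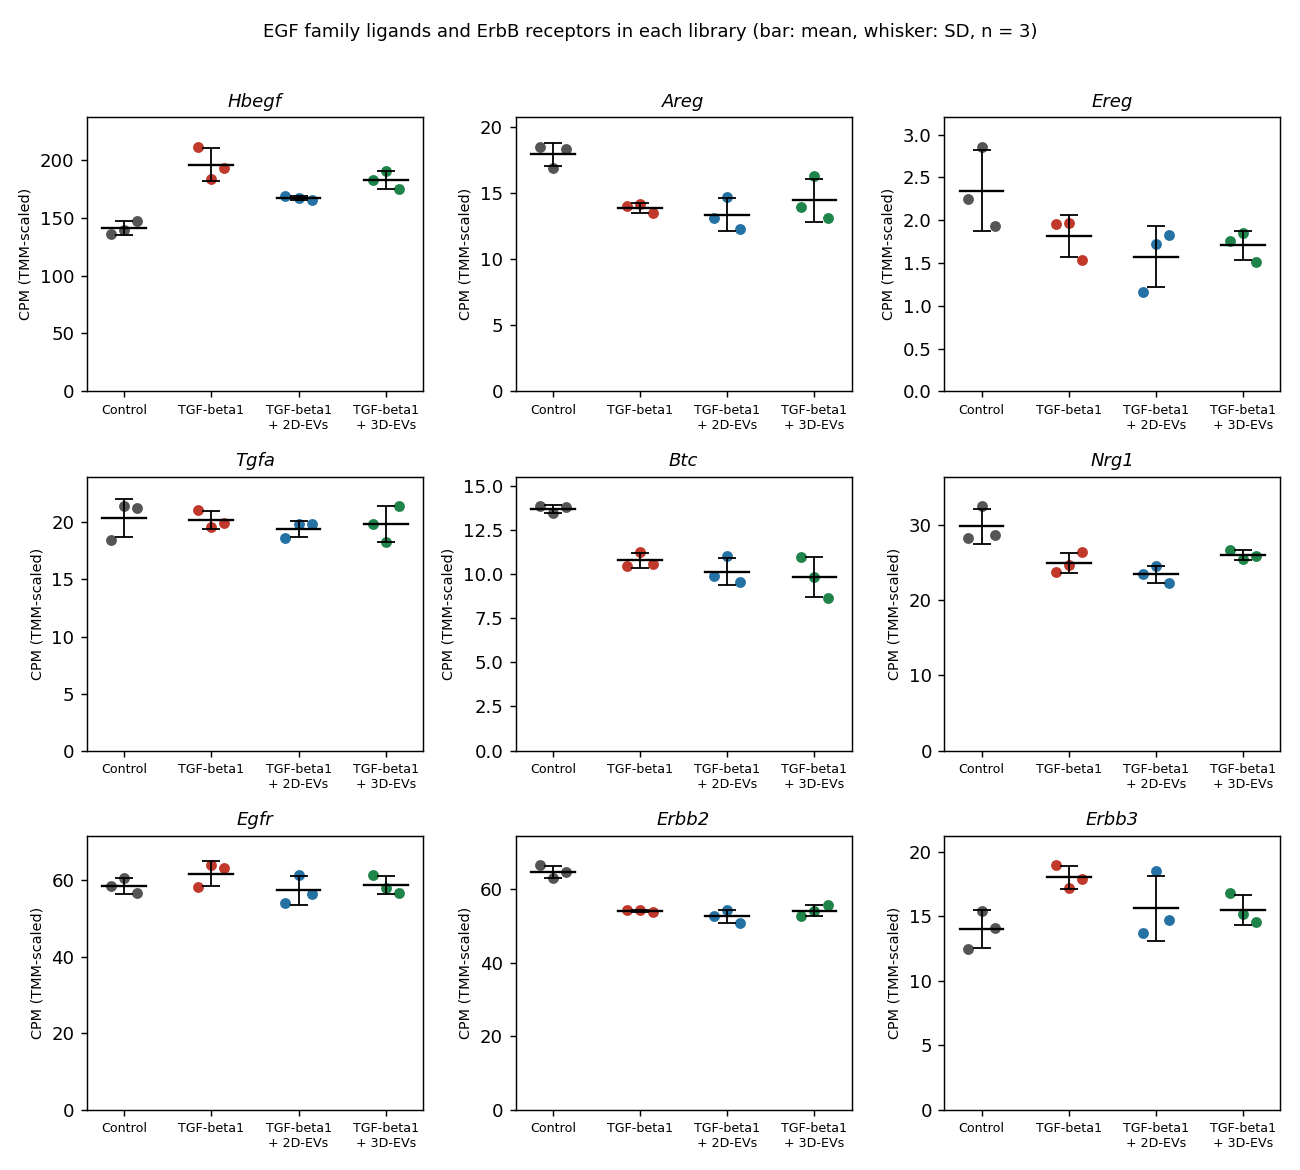
Level of each family gene in every library (y axis, TMM-scaled CPM, from 0) for the 4 groups (x axis). Points are libraries, the bar is the mean and whiskers are the SD, n = 3. In Hbegf all TGF-beta1 libraries lie above the Control libraries, and in Areg, Btc and Erbb2 all lie below them.

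Hbegf encodes heparin-binding EGF-like growth factor, a ligand of the EGF receptor and of ERBB4. Its level was 136, 139.6 and 147 CPM in the Control libraries, 211, 183 and 193 CPM in TGFb1, 169, 168 and 165 CPM with 2D-EVs and 182, 190.2 and 175 CPM with 3D-EVs. All 9 libraries that had received TGF-beta1 lay above the highest Control library. The means were 141 ± 6.03 CPM in Control and 196 ± 14.2 CPM in TGFb1 (SD, n = 3). The log2 change was 0.48 (SE 0.05, edgeR adjusted p = 6.37e-06), which placed Hbegf at rank 199 of 14184 genes by p in this comparison. By size of change it was at rank 670 of the 3124 genes called.

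Areg encodes amphiregulin, a low-affinity ligand of the EGF receptor. Its Control libraries read 18.5, 16.9 and 18.4 CPM, against 14.0, 14.2 and 13.5 CPM in TGFb1, 13.1, 14.7 and 12.3 CPM with 2D-EVs and 13.9, 16.3 and 13.1 CPM with 3D-EVs. Every library given TGF-beta1 was below the lowest Control library, and the library nearest to Control was the second with 3D-EVs. From Control to TGFb1 the mean went from 17.9 ± 0.875 to 13.9 ± 0.380 CPM (SD, n = 3), a log2 change of -0.37 (SE 0.09, edgeR adjusted p = 0.00732).

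Btc encodes betacellulin, which binds the EGF receptor and ERBB4. It was at 13.8, 13.4 and 13.8 CPM in Control, 10.5, 11.3 and 10.6 CPM in TGFb1, 9.88, 11.0 and 9.52 CPM with 2D-EVs and 10.9, 9.82 and 8.66 CPM with 3D-EVs. Again the Control libraries were the 3 highest and no other library reached them. TGFb1 against Control gave a log2 change of -0.34 (SE 0.09, edgeR adjusted p = 0.013).

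Ereg, for epiregulin, a further ligand of the EGF receptor, was counted only 40 to 98 times per library. Control libraries were at 2.25, 2.86 and 1.93 CPM and TGFb1 libraries at 1.95, 1.97 and 1.54 CPM, so the groups overlapped. The log2 change was -0.37 with a 95% interval from -0.84 to 0.11 (edgeR adjusted p = 0.278), so that a change as large as that of Areg could not be told from none at this depth. Levels were 1.17, 1.73 and 1.83 CPM with 2D-EVs and 1.76, 1.85 and 1.52 CPM with 3D-EVs, all below the lowest Control library.

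Among the protein-coding genes of the RefSeq annotation of the rat build GRCr8, Btc, Areg, Ereg and the related ligand gene Epgn follow each other on chromosome 14. Genes of other types were not included in this order. Parm1 precedes Btc, and Mthfd2l follows Epgn. Neither passed the test for TGFb1 against Control. Parm1 was at a log2 change of 0.05 (edgeR adjusted p = 0.369) and Mthfd2l at 0.14 (adjusted p = 0.258). One gene further out on either side among those tested, Rchy1 was at 0.01 (adjusted p = 0.896) and the chemokine gene Cxcl1 at -0.16 (adjusted p = 0.512). Of these outer genes Thap6 fell with 2D-EVs against Control (-0.25, adjusted p = 0.0388) and Cxcl1 rose with 3D-EVs against Control (0.51, adjusted p = 0.0247). Epgn itself, at 0 to 6 counts in a library, fell under the filter.

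**Figure D2:**
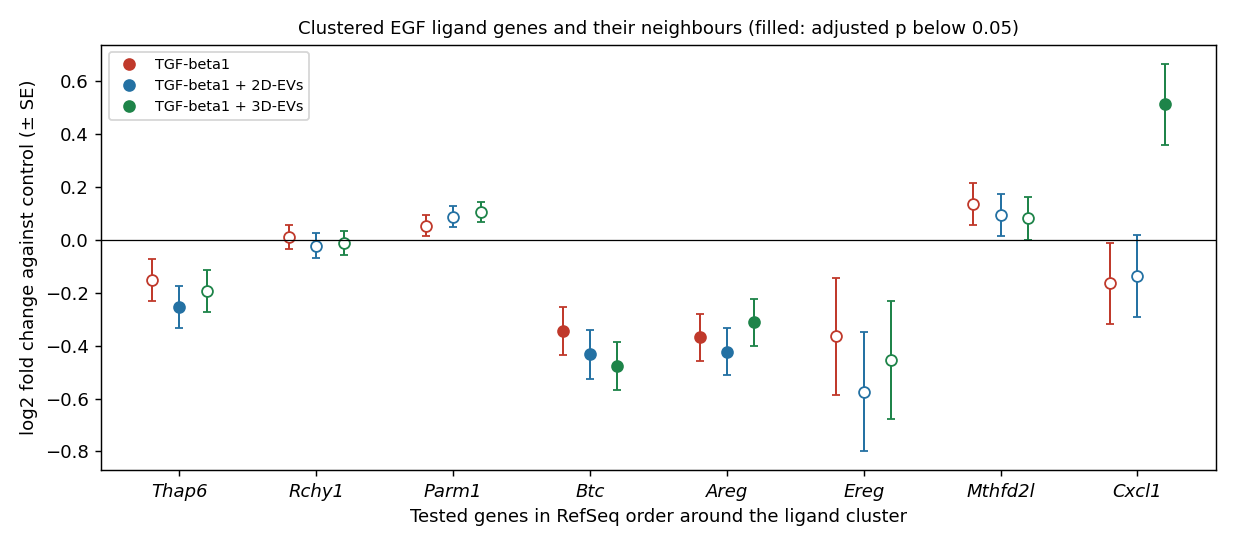
Log2 fold change against Control (y axis, point ± SE) for TGF-beta1 alone and with each kind of vesicle. The x axis holds the tested protein-coding genes in RefSeq order around the clustered ligand genes. Filled points passed an adjusted p of 0.05. Btc and Areg are filled and below 0 in all 3 groups, Ereg is open throughout, and the adjoining Parm1 and Mthfd2l are open and above 0.

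RefSeq promoter sequences on GRCr8 were found for 6 of the 9 genes (Hbegf, Areg, Tgfa, Btc, Egfr and Erbb2). The 250 bases before the start site are printed 5′ to 3′ for Areg, Btc and Erbb2, the family genes with an entry that fell in all 3 groups given TGF-beta1. Capitals mark matches to the motifs searched. The counts themselves were made on another build, and these sequences were used for their letters only.
Areg, chr14:17265642-17265891, minus strand: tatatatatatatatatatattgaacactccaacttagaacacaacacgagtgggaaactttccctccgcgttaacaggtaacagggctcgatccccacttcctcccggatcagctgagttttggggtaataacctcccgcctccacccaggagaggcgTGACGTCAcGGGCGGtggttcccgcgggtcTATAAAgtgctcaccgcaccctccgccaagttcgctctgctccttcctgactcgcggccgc
Btc, chr14:16992418-16992667, plus strand: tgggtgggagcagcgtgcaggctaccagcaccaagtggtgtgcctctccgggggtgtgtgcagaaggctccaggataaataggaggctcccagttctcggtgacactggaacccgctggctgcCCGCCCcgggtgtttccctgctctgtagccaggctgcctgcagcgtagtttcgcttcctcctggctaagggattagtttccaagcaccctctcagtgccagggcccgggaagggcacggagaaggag
Erbb2, chr10:83907351-83907600, plus strand: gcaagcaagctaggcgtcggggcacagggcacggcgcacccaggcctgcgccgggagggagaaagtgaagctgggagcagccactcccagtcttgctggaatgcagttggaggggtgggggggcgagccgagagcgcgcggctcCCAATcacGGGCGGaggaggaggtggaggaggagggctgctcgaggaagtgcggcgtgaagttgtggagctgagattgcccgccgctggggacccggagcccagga

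The Areg promoter held the cyclic AMP response element TGACGTCA, with its first base 91 bases before the start, a sequence found in 1.59% of the 33469 promoters of the table. It also held the GC box GGGCGG at 82 bases and the TATA box TATAAA at 61 bases before the start, found in 30.5% and 12.9% of all promoters. The Btc promoter held a GC box on the other strand, CCGCCC, at 127 bases. The Erbb2 promoter held a CCAAT box at 106 bases, a motif of 34% of promoters, and a GC box at 98 bases. Both strands were searched and the motifs do not overlap one another. The AP-1 site TGACTCA (4.05% of promoters), the palindromic Smad box GTCTAGAC (0.173%) and the TEAD site ACATTCC (3.52%) were not among the letters of any of the 6 promoters. At such low shares, absence from 6 promoters says little about them. Only these exact letters were searched, so shorter or variant forms of these sites may be present. GC content was 54.4% for Areg, 62.8% for Btc and 69.2% for Erbb2, against a median of 51.2% over all promoters. Such features were not limited to genes that fell. Tgfa and Egfr, which did not pass against Control, also held a GC box, and Hbegf, which rose, held a CCAAT box. GC content was 74.4% for Tgfa, 63.6% for Egfr and 67.6% for Hbegf. A match describes the letters and does not show that a factor binds.

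Nrg1 encodes neuregulin 1, which binds ERBB3 and ERBB4. Levels were 28.3, 32.5 and 28.7 CPM in Control, 23.8, 24.7 and 26.5 CPM in TGFb1, 23.5, 24.6 and 22.3 CPM with 2D-EVs and 26.7, 25.5 and 25.9 CPM with 3D-EVs. No library given TGF-beta1 reached the lowest Control library. TGFb1 against Control gave a log2 change of -0.26 (SE 0.07, edgeR adjusted p = 0.013). The call was lost without Control replicate 2 (adjusted p = 0.0752) and without TGFb1 replicate 1 (adjusted p = 0.0592), with log2 changes of -0.19 and -0.22.

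Tgfa encodes transforming growth factor alpha, a ligand of the EGF receptor that is unrelated in sequence to TGF-beta1. Its libraries spanned 18.4 to 21.4 CPM in Control, 19.6 to 21.1 CPM in TGFb1, 18.7 to 19.8 CPM with 2D-EVs and 18.2 to 21.4 CPM with 3D-EVs, and all groups overlapped. The TGFb1 change against Control was -0.01 on the log2 scale with a 95% interval from -0.17 to 0.15 (edgeR adjusted p = 0.945).

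Among the receptors, Egfr, which encodes the receptor for most of these ligands, read 58.4, 60.7 and 56.6 CPM in Control and 58.1, 63.9 and 63.2 CPM in TGFb1. The groups overlapped, and the log2 change of 0.08 had a 95% interval from -0.04 to 0.19 (edgeR adjusted p = 0.362). With 2D-EVs Egfr was at 54.1, 61.4 and 56.4 CPM, and with 3D-EVs at 61.4, 58.0 and 56.8 CPM. All 4 groups overlapped, and the lowest library was the first with 2D-EVs.

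Erbb2 was at 66.5, 63.1 and 64.6 CPM in Control, 54.3, 54.4 and 53.7 CPM in TGFb1, 52.7, 54.4 and 51.0 CPM with 2D-EVs and 52.7, 54.1 and 55.6 CPM with 3D-EVs. The Control libraries stood above all 9 others, which lay between 51.0 and 55.6 CPM. Means were 64.7 ± 1.73 CPM in Control and 54.1 ± 0.334 CPM in TGFb1 (SD, n = 3). The log2 change was -0.26 (SE 0.04, edgeR adjusted p = 0.00027).

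Erbb3 went the other way, with 12.5, 15.4 and 14.1 CPM in Control and 19.0, 17.2 and 17.9 CPM in TGFb1. The lowest TGFb1 library was above the highest Control library. The log2 change was 0.36 (SE 0.11, edgeR adjusted p = 0.0232). This call rested on single libraries, since it was lost without Control replicate 1 (log2 0.29, adjusted p = 0.105), Control replicate 3 (adjusted p = 0.0561), TGFb1 replicate 1 (adjusted p = 0.0779) or TGFb1 replicate 3 (adjusted p = 0.0518).

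The rest of the family was at or near the floor of detection. Egf, the gene for EGF itself, was tested at 12 to 39 counts per library and passed in none of the 6 comparisons. Erbb4, for the remaining ErbB receptor, was listed at 0 in all 12 libraries. Counting error alone would allow up to 0.0764 to 0.0915 CPM, but as Mapk3 was listed at 0 too, this is no firm ceiling. Epgn, Nrg2, Nrg3 and Nrg4 had at most 8 counts in any library and were not tested.

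**Figure D3:**
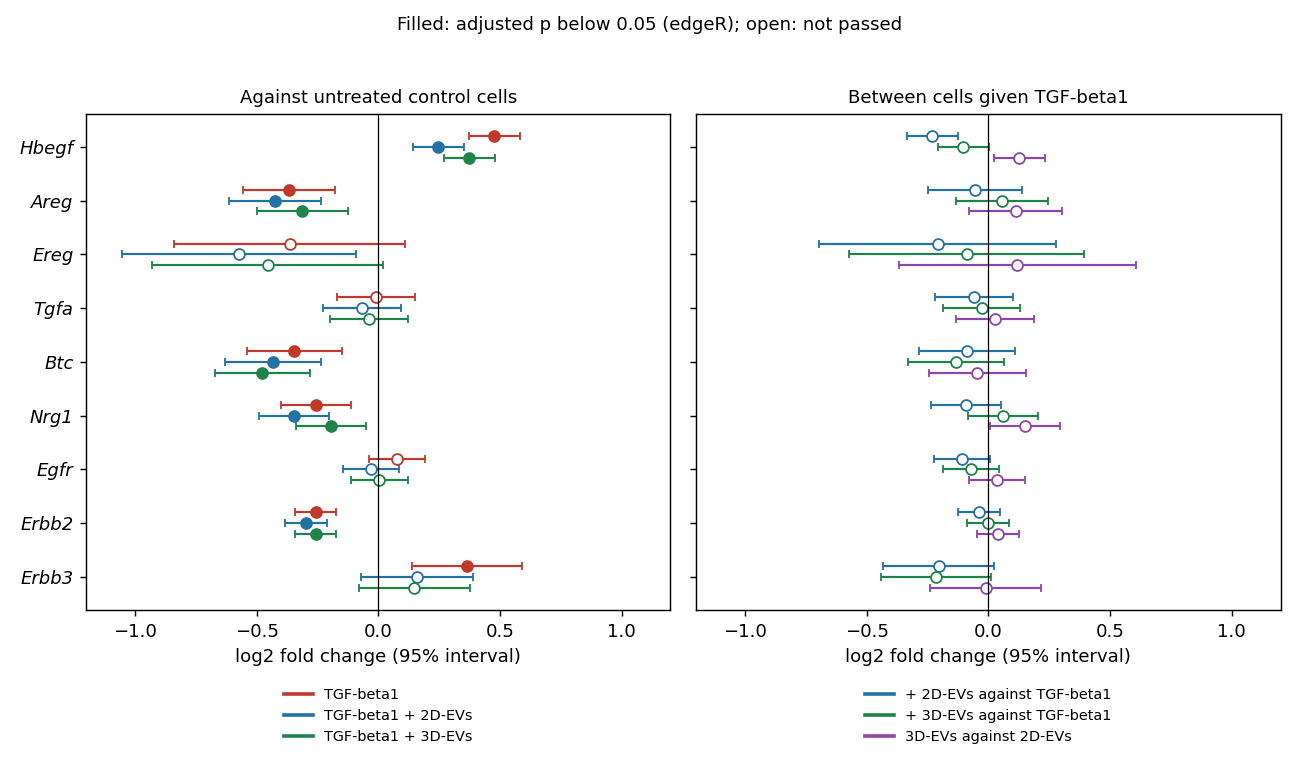
Log2 fold changes of the 9 family genes (x axis, with 95% intervals) for the 3 comparisons with Control (left) and the 3 comparisons among cells given TGF-beta1 (right). Filled points passed an adjusted p of 0.05. On the left Hbegf lies above 0 and Areg, Btc, Nrg1 and Erbb2 below 0 in all 3 groups, and no point on the right is filled.

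Whether vesicles altered the family in cells given TGF-beta1 was addressed by comparing each vesicle group with TGFb1. With 2D-EVs no family gene passed by edgeR, where 0.0282% of all genes did (4 of 14184). At an unadjusted p under 0.05 there was 1, Hbegf, against 7.10% of all genes. DESeq2 called 1, also Hbegf, and limma-voom called 0. The 3 libraries with 2D-EVs, at 165 to 169 CPM, lay below the 3 TGFb1 libraries, at 183 to 211 CPM, and above the 3 Control libraries. The log2 change of Hbegf against TGFb1 was -0.23 (SE 0.05, 95% interval from -0.33 to -0.13, edgeR adjusted p = 0.162). By DESeq2 its adjusted p was 0.00421, and over the other alternatives it ran from 0.0573 without a filter on low counts to 0.436 without the first 2D-EVs library. Hbegf was the single family gene whose 2D-EVs and TGFb1 libraries did not overlap, which held for 12.4% of all genes. The other 8 genes had log2 changes between -0.21 for Ereg and -0.04 for Erbb2.

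With 3D-EVs against TGFb1 no family gene passed by edgeR, where 0% of all genes did. None was under an unadjusted p of 0.05, against 7.24% of all genes, and limma-voom called 0. DESeq2 gave an adjusted p for 1 of the 9, Hbegf, and did not call it (adjusted p = 0.433). Hbegf was at a log2 change of -0.10 (95% interval from -0.21 to 0.00, edgeR adjusted p = 0.682), or -0.05 without TGFb1 replicate 1, and 1 of its 3D-EVs libraries lay within the TGFb1 range. Erbb3, at 16.8, 15.2 and 14.6 CPM with 3D-EVs, was the single family gene whose libraries did not overlap those of TGFb1 (13.6% of all genes). Its log2 change was -0.22 (95% interval from -0.44 to 0.01, edgeR adjusted p = 0.693). With 2D-EVs Erbb3 was at 13.7, 18.5 and 14.7 CPM, a wide spread, and at -0.20 against TGFb1 (95% interval from -0.43 to 0.02, adjusted p = 0.739), or -0.12 without 2D-EVs replicate 1 and -0.34 without 2D-EVs replicate 2. The 2 vesicle comparisons share the TGFb1 libraries.

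Compared directly, the 3D-EVs and 2D-EVs groups differed in no family gene by edgeR, where 0.00705% of all genes passed (1 of 14184). Hbegf and Nrg1 were under an unadjusted p of 0.05, as were 6.90% of all genes, and limma-voom called 0. DESeq2 gave an adjusted p for Hbegf alone (0.206). In both genes every 3D-EVs library was above every 2D-EVs library, as in 11.4% of all genes in either direction. Hbegf was at 182 ± 7.76 CPM with 3D-EVs and 167 ± 1.79 CPM with 2D-EVs (SD, n = 3), a log2 difference of 0.13 (95% interval from 0.02 to 0.23, edgeR adjusted p = 0.648). Nrg1 differed by 0.15 (95% interval from 0.01 to 0.30, adjusted p = 0.708). From low to high the mean Hbegf level was in the order Control, 2D-EVs, 3D-EVs and TGFb1. Of the neighbours in that order 2D-EVs differed from Control by the test, and the other steps did not pass.

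Against Control, the cells given vesicles after TGF-beta1 had 5 family genes called in each group, the same 5 genes (Hbegf higher, and Areg, Btc, Nrg1 and Erbb2 lower). Over all genes 18.6% were called with 2D-EVs, 10.5% higher and 8.13% lower, and 23.0% with 3D-EVs, 12.2% higher and 10.8% lower. These comparisons share the Control libraries with each other and with the comparison of TGFb1 with Control, so their values are set side by side. Hbegf was at a log2 change of 0.48 in TGFb1, 0.25 with 2D-EVs (edgeR adjusted p = 0.00247) and 0.37 with 3D-EVs (adjusted p = 6.64e-05). Areg was at -0.37, -0.42 and -0.31, with adjusted p of 0.0035 and 0.019 by edgeR in the vesicle groups.

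Btc was at -0.34 in TGFb1, -0.43 with 2D-EVs (edgeR adjusted p = 0.00372) and -0.48 with 3D-EVs (adjusted p = 0.00148). Erbb2 was at -0.26, -0.30 and -0.26, with adjusted p of 0.000113 and 0.000283 by edgeR in the vesicle groups. Set directly against TGFb1, Btc differed by -0.09 with 2D-EVs and -0.13 with 3D-EVs and Erbb2 by -0.04 and 0.00, and none of these passed. Nrg1 was at -0.26 in TGFb1, -0.35 with 2D-EVs (edgeR adjusted p = 0.0021) and -0.20 with 3D-EVs (adjusted p = 0.0483).

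The 3D-EVs call of Nrg1 was close to the threshold and held in 3 of 12 alternative settings, with an adjusted p of up to 0.226 without Control replicate 2, where the log2 change was -0.13. The 3D-EVs call of Areg was lost without Control replicate 1 or 3 and without 3D-EVs replicate 1 or 3, with adjusted p from 0.0625 to 0.0856. Erbb3 passed in neither vesicle group, at 0.16 with 2D-EVs (edgeR adjusted p = 0.356) and 0.15 with 3D-EVs (adjusted p = 0.366), and its libraries overlapped those of Control. That Erbb3 passed in TGFb1 and not in the vesicle groups does not show a difference between them, since the direct comparisons did not pass. Ereg did not pass in either (-0.57, adjusted p = 0.0954, and -0.45, adjusted p = 0.167), although its Control libraries did not overlap those of either vesicle group. With Ereg, 6 of the 9 genes had no overlap with Control in each vesicle group, against 33.2% of all genes with 2D-EVs and 38.0% with 3D-EVs.

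The other genes of the pathway were taken in 5 lists by role, with 67 genes tested. In TGFb1 against Control 13 of the 67 rose and 10 fell, where 11.8% of all genes rose and 10.2% fell, and the median log2 change was 0.03. The lists were chosen with results of these data known and are described here by counts only. Junb and, of the markers, Krt19 had no row and were not analysed here.

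Genes that free the ligands or may block that step included 11 tested, of which 4 rose in TGFb1 and 0 fell. Over all genes 11.8% rose and 10.2% fell. Adam9, a metalloprotease, was at 151, 159 and 154 CPM in Control and 189.6, 196 and 206 CPM in TGFb1, with no overlap (log2 change 0.35, edgeR adjusted p = 3.36e-05). Timp1, an inhibitor of metalloproteases, rose by 0.33 on the log2 scale (adjusted p = 4.81e-05). Adam17, the main sheddase of several EGF receptor ligands, was at 70.5 CPM on average in Control and 68.7 CPM in TGFb1 and did not pass (log2 change -0.04, adjusted p = 0.653). Adam10, a further metalloprotease, also rose in TGFb1, with means of 222 CPM in Control and 239 CPM in TGFb1. It was not called with a replicate block. Timp3, a further inhibitor of metalloproteases, rose from 29.1 to 35.1 CPM. So genes for proteases and for inhibitors of metalloproteases rose in the same libraries. Whether these inhibitors act on these proteases was not tested. Against Control, Adam9 and Timp1 also rose with 2D-EVs (0.24 and 0.25) and with 3D-EVs (0.32 and 0.36).

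Of 11 tested genes whose products restrain the receptors, 1 fell in TGFb1 and 0 rose. Over all genes 10.2% fell and 11.8% rose. The listed gene that fell was Lrig1, for a membrane protein that promotes loss of ErbB receptors. It was at 23.3, 24.5 and 24.5 CPM in Control, 14.4, 13.7 and 15.6 CPM in TGFb1, 15.6, 16.9 and 13.8 CPM with 2D-EVs and 15.6, 14.3 and 16.7 CPM with 3D-EVs. The Control libraries were well above all others. The log2 change was -0.73 in TGFb1 (edgeR adjusted p = 1.51e-05), -0.64 with 2D-EVs (adjusted p = 6.56e-05) and -0.63 with 3D-EVs (adjusted p = 5.7e-05), in each case larger in size than that of any of the 9 family genes. Ptprj, a receptor phosphatase, was at -0.19 in TGFb1 (edgeR adjusted p = 0.0732), -0.28 with 2D-EVs (adjusted p = 0.0117) and -0.25 with 3D-EVs (adjusted p = 0.0185). Its call with 2D-EVs was lost without 2D-EVs replicate 3 (adjusted p = 0.0589), and that with 3D-EVs without Control replicate 2 or 3D-EVs replicate 1 or 2 (adjusted p from 0.0554 to 0.0693).

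Among 22 tested signal transducers 4 rose and 3 fell in TGFb1, where 11.8% of all genes rose and 10.2% fell. Map2k1, for the MAP kinase kinase MEK1, rose by 0.21 on the log2 scale (edgeR adjusted p = 0.000275), and Shc1, an adaptor, by 0.19 (adjusted p = 0.000757). The phosphoinositide 3-kinase subunit genes Pik3r1 and Pik3r2 fell, with log2 changes of -0.22 (adjusted p = 0.0123) and -0.17 (adjusted p = 0.0252). The 7 log2 changes lay between -0.22 and 0.22. The calls of Pik3r1 and Pik3r2 were lost without Control replicate 3 (adjusted p of 0.0647 and 0.131), that of Pik3r1 without TGFb1 replicate 2 (0.0606) and that of Pik3r2 without TGFb1 replicate 1 (0.127), all by edgeR. Against Control with 2D-EVs, Map2k1 rose by 0.16 on the log2 scale (adjusted p = 0.0026) and the phosphatase gene Ptpn11 by 0.18 (adjusted p = 0.0105, or 0.0574 without Control replicate 3). The adaptor gene Gab1 was at -0.22 (adjusted p = 0.00661). With 3D-EVs Map2k1 rose by 0.23, and Gab1 and Pik3r1 were at -0.21 and -0.24, with edgeR adjusted p from 0.000154 to 0.00839. Ptpn11 rose by 0.15 with 3D-EVs (adjusted p = 0.0201), with overlapping libraries, and this call was lost without Control replicate 1 or 3 and without 3D-EVs replicate 1 or 2 (adjusted p from 0.0552 to 0.105).

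Of 9 tested feedback genes of the MAP kinase route 1 rose and 3 fell in TGFb1. The shares of all genes were 11.8% and 10.2%. Spry2, a Sprouty inhibitor of receptor signalling, was at 65.2, 61.3 and 62.1 CPM in Control and 50.0, 48.9 and 50.3 CPM in TGFb1, without overlap (log2 change -0.34, edgeR adjusted p = 4.17e-05). Spry4, of the same family, was at -0.33 (adjusted p = 0.0013). Dusp7, a MAP kinase phosphatase, rose by 0.17 on the log2 scale (adjusted p = 0.0177), a call lost without any one of Control replicates 2 and 3 and TGFb1 replicates 1 and 3 (adjusted p from 0.0534 to 0.0801). Spry2 and Spry4 were also lower than Control with 2D-EVs (-0.39 for both genes) and with 3D-EVs (-0.29 and -0.40), and 4 of the 9 genes fell in each vesicle group, where 8.13% of all genes fell with 2D-EVs and 10.8% with 3D-EVs.

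Of 14 tested genes that growth factor signalling is known to induce, 4 rose and 3 fell in TGFb1. The shares of all genes were 11.8% and 10.2%. Plaur, the urokinase receptor gene, was at 88.2, 78.0 and 84.5 CPM in Control and 142, 129 and 137 CPM in TGFb1, without overlap (log2 change 0.70, edgeR adjusted p = 1.77e-07). Etv4, for an ETS family transcription factor, rose by 0.55 on the log2 scale (adjusted p = 9.21e-05). Ccnd1, for cyclin D1, was at -0.18 (adjusted p = 0.00603). Against Control Plaur also rose with 2D-EVs (0.49) and with 3D-EVs (0.51). Etv4 rose with 3D-EVs (0.49, edgeR adjusted p = 0.000268) and with 2D-EVs (0.30, adjusted p = 0.011), the latter call being lost without Control replicate 3 (adjusted p = 0.0578) or 2D-EVs replicate 3 (adjusted p = 0.0566). The early-response gene Ier2 was at -0.41 with 2D-EVs (edgeR adjusted p = 0.00161) and Ccnd1 at -0.17 with 3D-EVs (adjusted p = 0.00755).

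Klf6, an early-response transcription factor, was called lower in TGFb1 (log2 change -1.66, edgeR adjusted p = 0.00658), but its Control libraries were at 60.5, 11.5 and 64.7 CPM and its TGFb1 libraries at 14.3, 14.2 and 14.8 CPM. Control replicate 2 thus lay below all TGFb1 libraries. The call was lost under limma-voom (adjusted p = 0.101), and without that library the log2 change was -2.12. With 2D-EVs and 3D-EVs Klf6 was at -1.86 and -1.82 against the same Control libraries (edgeR adjusted p of 0.00395 and 0.00374), and these calls too were lost under limma-voom (0.0853 and 0.0716).

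**Figure D4:**
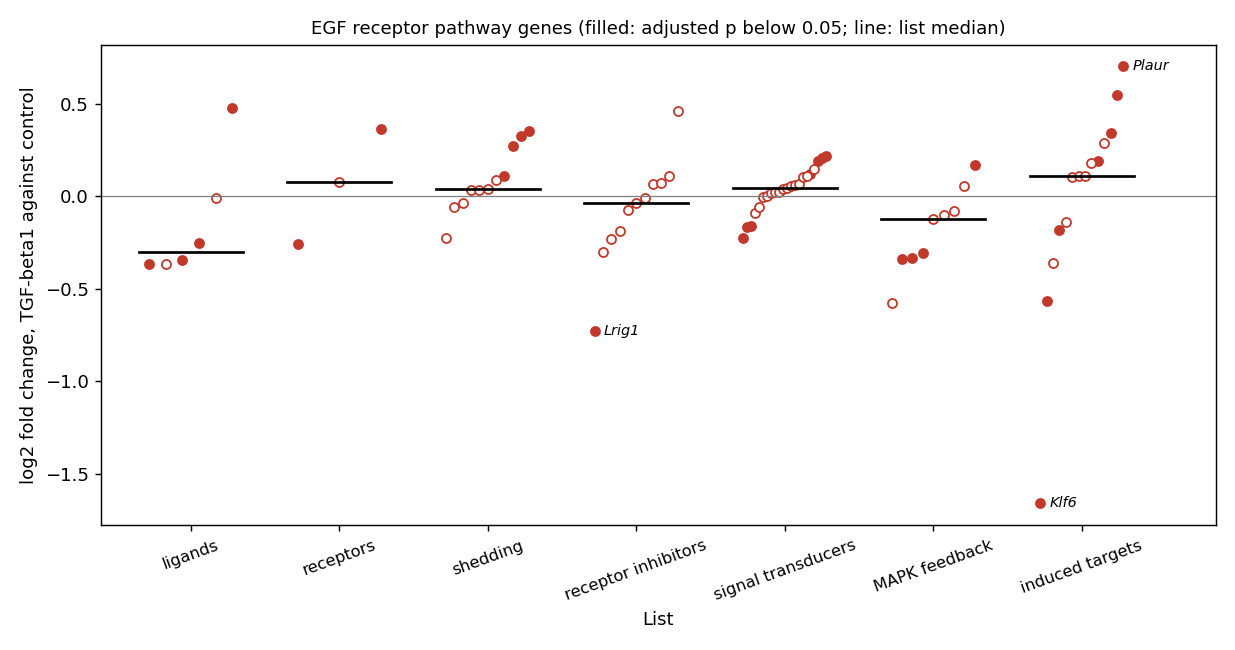
Log2 fold change of TGFb1 against Control (y axis) for every tested gene of the family and of the 5 pathway lists (x axis). Filled points passed an adjusted p of 0.05 and lines are list medians. Plaur is the highest point, and Klf6 and Lrig1 are the lowest.

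Between the vesicle groups and TGFb1 0 of the 67 pathway genes passed by edgeR with 2D-EVs and 0 with 3D-EVs, and 0 between 3D-EVs and 2D-EVs. At an unadjusted p under 0.05 there were 13, 5 and 5, where the shares of all genes were 7.10%, 7.24% and 6.90%. DESeq2 called 2 of 67 with 2D-EVs (Phlda1 and Plaur), 1 of the 34 to which it gave an adjusted p with 3D-EVs (Shc1) and 0 of 12 between the vesicle groups, and limma-voom called 0 in each. With 2D-EVs 7 of the 13 were among the 14 induced genes, whose median log2 change against TGFb1 was -0.21. Plaur was at 121, 114 and 118 CPM with 2D-EVs and 122, 123 and 113 CPM with 3D-EVs. All 6 of these libraries lay below the TGFb1 libraries and above the Control libraries. Against TGFb1 the log2 change of Plaur with 2D-EVs was -0.21 (edgeR adjusted p = 0.237, DESeq2 adjusted p = 0.0255).

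The genes with the smallest p in the other lists did not pass for 2D-EVs against TGFb1. They were Adam9 (log2 change -0.11), Errfi1 (-0.11), Nras (-0.11) and Dusp6 (-0.12), with edgeR adjusted p from 0.552 to 0.702. For 3D-EVs against TGFb1 the corresponding genes were Rhbdf2 (0.17), Cbl (-0.52), Shc1 (-0.14), Dusp7 (-0.08) and Plaur (-0.19), with adjusted p from 0.455 to 0.792. Between 3D-EVs and 2D-EVs they were Timp1 (0.11), Rnf41 (-0.08), Map2k2 (0.09), Spry2 (0.11) and Etv4 (0.18), with adjusted p from 0.621 to 0.825. Against Control, 9 of the 67 rose and 11 fell with 2D-EVs, where 10.5% of all genes rose and 8.13% fell. With 3D-EVs 8 rose and 15 fell, where 12.2% of all genes rose and 10.8% fell.

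For each family gene called in any comparison the 2 genes with the nearest profile over the 12 libraries were taken from 10710 genes with a symbol and a mean of at least 1 CPM. Likeness was the root mean square difference of the centred log2 profiles divided by the SD of the family gene's profile, so that 0 is an identical profile. The nearest to Hbegf were F2r (0.317), for the thrombin receptor, and Cald1 (0.336), for caldesmon. F2r was at 414 CPM in Control, 541 in TGFb1, 477 with 2D-EVs and 524 with 3D-EVs, the same order of groups as Hbegf. The nearest to Areg were Samd11 (0.361) and Parpbp (0.398), and to Btc Atp10d (0.292) and Fanci (0.331).

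Nrg1 had as nearest profiles Met (0.394), for the hepatocyte growth factor receptor, and Tyms (0.412), for thymidylate synthase. Met was at 113 CPM in Control and 94.5, 91.8 and 95.9 CPM in TGFb1, 2D-EVs and 3D-EVs. Erbb2 had Anp32e (0.285) and Id1 (0.340), an inhibitor of DNA binding, and Erbb3 had Marveld2 (0.289), for the tight junction protein tricellulin, and Polr1g (0.453). These values describe the 12 libraries, which share their treatments.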

How the data were processed

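The data are RNA-seq libraries of total RNA from NRK-52E cells, 12 in all and 3 per group. The submitters' processing notes name fastp, HISAT2, StringTie, DESeq2 and the build mRatBN7.2. Tool versions, the counting method, its use of strand and the annotation are among the details not given in the sources used here. Each file holds counts per gene as deposited by the authors, in whole numbers and not normalized. The joint table matched all 12 single-library tables. Cells holding 1 (1514) were fewer than cells holding 2 (5687), so the lowest counts are not a plain tally of reads, and floors cover counting error only.

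Libraries were grouped by their labels. Counts were tested with edgeR 4.0.16 (R 4.3.3) by a quasi-likelihood F-test in 1 fit of 4 group means over all 12 libraries, with TMM factors, filterByExpr (min.count 10) and Benjamini-Hochberg adjustment over the 14184 genes tested, at a threshold of 0.05, in 6 comparisons. A further 5394 genes were at 0 in all libraries. Replicate libraries of 1 group differed beyond sampling noise (chi-square per degree of freedom 6.82 to 10.9). The alternatives were DESeq2 1.42.0, limma-voom (limma 3.58.1), upper-quartile factors, no filter, a replicate block, only the 2 groups compared, and leaving out each library. The edgeR fit was tested on simulated counts for TGFb1 against Control, and the other fits and steps were not tested in this way. Profiles used log2 of CPM plus 0.1. No batch is named in the labels.

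The 9 family genes, the pathway and marker lists and the tests were chosen with earlier results of these data known. All 9 genes are reported, with the other family genes, and from each pathway list and comparison up to 2 genes that rose and 2 that fell with the smallest p, or the 1 with the smallest p where none passed. The exceptions, named after their values were seen, are Adam10, Adam17, Timp3, the genes beside the clustered ligands, and those called by DESeq2 among vesicle comparisons. A few genes of the pathway lists are not reported here and were left out of the list counts, though not of the fit. Promoters and the order of protein-coding genes are from RefSeq tables of the build GRCr8, and no transcript lengths were used.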

Additional observations from a re-analysis of the deposited data

How the results depend on the processing

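Of the family genes called for TGFb1 against Control, Hbegf, Areg, Btc and Erbb2 passed in all 12 alternatives. The count of 6 ran from 4 to 6 when single libraries were left out, with 4 without TGFb1 replicate 1. For 2D-EVs against Control the same 5 genes passed in all 12 alternatives. For 3D-EVs against Control the count of 5 ran from 3 to 4 when single libraries were left out, with 3 without Control replicate 3, 3D-EVs replicate 1 or 3D-EVs replicate 3, and was 4 by DESeq2. For 2D-EVs against TGFb1 the count of 0 was 1 under DESeq2. With a replicate block the counts were 6 for TGFb1, 5 for 2D-EVs and 4 for 3D-EVs against Control, where Nrg1 was lost (adjusted p = 0.0682 by edgeR), and 0 in the 3 comparisons among cells given TGF-beta1. Residual correlations of same-numbered libraries ran from -0.145 to 0.139, with 3 of 18 above 0.1. For 6 of the 12 libraries the mean residual correlation with libraries of other groups was highest for those of the same number. With 3 libraries per group these values cannot decide whether the numbers pair the libraries. The cause of the changes in the counts of called genes was not tested.

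Over all genes 2D-EVs against TGFb1 had 4 calls by edgeR, 54 by DESeq2, 9 by limma-voom, 14 without a filter and 7 with only those groups. For 3D-EVs against TGFb1 there were 0 by edgeR and 21 by DESeq2. Between 3D-EVs and 2D-EVs there was 1 by edgeR, 35 by DESeq2, 8 without a filter and 2 by limma-voom.

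Changes that turned sign passed the test under neither setting. They were Erbb2 for 3D-EVs against TGFb1 (-0.00145 by limma-voom) and Egfr for 3D-EVs against Control (-0.00137 with upper-quartile factors). With single libraries left out, TGFb1 against Control ranged for Tgfa from -0.0753 to 0.0291. For 2D-EVs against TGFb1 Areg ranged from -0.13 to 0.00176. For 3D-EVs against TGFb1 Areg ranged from -0.0379 to 0.12, Tgfa from -0.086 to 0.0281 and Erbb2 from -0.0194 to 0.0196. Between 3D-EVs and 2D-EVs Ereg ranged from -0.0563 to 0.24, Tgfa from -0.0286 to 0.0857, Btc from -0.13 to 0.0365, Egfr from -0.00376 to 0.0891 and Erbb3 from -0.0965 to 0.13. Against Control Egfr ranged with 2D-EVs from -0.0837 to 0.00858, and with 3D-EVs Tgfa from -0.10 to 0.0182 and Egfr from -0.0295 to 0.0317. Low counts limit the precision for Ereg and Egf, at 12 to 98 counts per library.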
